A study of Drosophila melanogaster with 8 samples.

Results

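Many long noncoding RNA genes of *Drosophila* carry the symbol CR and a number of 5 digits in the FlyBase naming, although some carry a name and some CR symbols are other genes. The genes described here are the 194 with such a symbol that had a raw count of at least 20 in every one of the 8 RNA-seq libraries of adult heads. They were 194 of 2019 CR symbols listed, of which 1411 had at least 1 count, and of 16727 symbols in all. Of 4 symbols that were left out by name (CR40469, CR45484, CR45473 and CR43906), 3 were also past the floor. The members were chosen by these raw counts, so their level is given as a description. Genotype labels entered the choice only through those 4 names. A floor in every library also leaves out genes with low counts in either genotype, which limits how far members can differ. The genes that members are set beside below did not have to meet this floor.

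Gene expression was measured in whole heads of the control *w1118* and of the *Top3β26* mutant, a p-element remobilized allele of the topoisomerase gene *Top3β* that is said to derive from the same *w1118* stock. Flies were adults of 1 to 2 weeks raised at 25 °C, with 4 libraries per genotype, and the sex of the flies is not given in the sources used here. A whole head holds brain, eye, fat body and muscle, so fewer cells of a type and less RNA per cell cannot be told apart. Nothing states that the 4 libraries of a genotype came from separate cultures, and p-values measure only the spread between these libraries.

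Many long noncoding RNAs are transcribed, spliced and polyadenylated like messenger RNAs but encode no known protein. Some lie alone, some run antisense across a protein coding gene, and some are the primary transcripts from which microRNAs are cut. Several well known ones act in chromatin, such as the *roX* RNAs that coat the male X chromosome, and many are read most strongly in the nervous system. For most CR genes no function is known.

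Counts on genes ran from 3301976 to 7591510 per library, so that 3 counts were 0.410 to 0.900 CPM (counts normalised for library size with TMM factors), a limit that covers counting error only. The targeted gene, *Top3beta*, had 134 to 215 counts in the libraries labelled w1118 and 214 to 534 in those labelled Top3b26, with a log2 fold change (log2FC, Top3b26 over w1118) of 0.90 (adjusted p = 0.157 in edgeR) that was not called. With the replicate number as a block it was called higher (0.86, adjusted p = 0.0129 in edgeR), as in DESeq2 (0.91, adjusted p = 0.0210). The part of the gene that the allele changes is not given in the sources used here, so this does not check the labels, and groups are named by their labels throughout. Replicates 1 and 2 (the first pair) were deposited with a header line and replicates 3 and 4 (the second pair) without. The summed CPM of 5 photoreceptor markers (*ninaE*, *trp*, *ninaC*, *Arr2*, *chp*) was 30401 to 36251 in the libraries labelled w1118, 19378 and 24386 in Top3b26 replicates 3 and 4, and 1266 and 1232 in Top3b26 replicates 1 and 2. These 2 libraries stand apart, and results are given for all libraries and within each pair. The summed CPM of *Yp1*, *Yp2* and *Yp3* was 34167 and 48544 in w1118 replicates 3 and 4 and 7610 to 13335 in the other 6. Neuronal markers were present everywhere (4076 to 7241 CPM summed), and 0 of 5 ovary markers had enough counts to be tested.

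The symbols did not all turn out to be long noncoding RNA genes in present annotation. Of the 194, 144 are annotated as antisense RNA and 45 as other lncRNA. The remainder are 3 rRNA pseudogenes on X (CR40677, CR41602 and CR41609), 1 gene now listed as protein coding (CR43051, now CG43051) and CR40962, which could not be matched. Exons of 159 members overlapped an exon on the opposite strand, 13 overlapped only a same-strand exon, 4 lay inside another gene without sharing an exon, 1 spanned other genes and 16 overlapped no gene. The median length was 1239 exonic bases, and 83 of the 194 had a single exon. They were spread over 2R (42 members), 2L (41), 3R (36), X (36), 3L (30) and chromosome 4 (8).

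The members took 2.02 to 3.18% of the counts on genes in a library. Mean level ran from 5.16 to 6458 CPM with a median of 18.5, so a few genes carried most of the signal. The highest was CR41602, an 18S rRNA pseudogene (X, 23211192 to 23213166, plus strand), with 7795 ± 835 CPM (SD, n = 4) in the libraries labelled w1118 and 5121 ± 1057 in those labelled Top3b26. The highest member that is a lncRNA was CR42862 (3L, 224106 to 230964, plus strand, 3 exons), with 6559 ± 1628 and 6028 ± 756 CPM. CR45601, antisense to the yolk protein gene *Yp1*, followed with 6326 ± 5344 and 2355 ± 629 CPM. All its exon bases lie under *Yp1* exons, and its reads cannot be told apart from those of *Yp1* in these files. CR31451, now named *mimi*, had 2376 ± 1169 and 1630 ± 876 CPM. CR34335 had 1263 ± 270 and 647 ± 182 CPM, and CR44509, antisense to the odorant-binding protein gene *Obp56e*, had 360 ± 108 and 243 ± 127 CPM. Per kilobase of exon the order among these changed, with the 361-base CR34335 at 2646 CPM per kb above CR31451 at 1282 and CR42862 at 1147. Reads of the rRNA pseudogenes can come from near-identical copies, and 16.6 to 30.4% of alignments per library were set aside as not unique, so their values are uncertain.

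With all 8 libraries, 0 members rose and 1 fell in the mutant, where a call needs an adjusted p up to 0.05 in edgeR's quasi-likelihood test and a difference of 1.5-fold or more. Among all 9633 genes tested, 0.249% were called higher and 0.664% lower, beside 0.515% of the members lower. The members' shares, here and below, lack the 3 symbols past the floor that were left out by name. The shares over all genes did not leave them out, so likeness to the background is not read as a result. At an unadjusted p up to 0.05, 14 members were higher and 24 lower (background 5.03% and 7.34%). DESeq2 called 1 higher, CR45161, and 5 lower, CR43242, CR43650, CR34335, CR43051 and CR40962 (background 0.623% and 1.79%). The median log2 fold change of the members was 0.02, beside -0.01 over all genes, and 148 of 194 lay within 0.5 of no difference. A fit with the replicate number as a block called 2 members higher and 9 lower (background 0.914% and 2.91%), and one with a term for the replicate pair called 2 and 11 (background 1.41% and 4.18%). Leaving out both Top3b26 libraries with low photoreceptor markers, an alternative added after the data were seen, gave 0 and 1 (background 0.0709% and 0.203%).

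The called member was CR43242 (2L, 23069005 to 23070724, plus strand, 2 exons), which overlaps no annotated gene. This member lies in the part of 2L that the paper's methods set as pericentric heterochromatin. Its CPM was 14.4, 12.0, 15.9 and 14.5 in w1118 replicates 1 to 4 and 8.01, 3.55, 4.86 and 5.30 in Top3b26 replicates 1 to 4. Every mutant library lay below every control library. The log2FC was -1.39 (standard error, SE, 0.24, adjusted p = 0.0338 in edgeR), with -1.24 in the first pair and -1.55 in the second pair, and the block gave -1.40 (adjusted p = 0.00811 in edgeR). Leaving out 1 library at a time gave -1.64 to -1.22, and the adjusted p passed the threshold in 1 of these 8 fits, the one without Top3b26 replicate 1. It also passed in each pair alone (adjusted p = 0.0130 and 0.000338 in edgeR) and with both Top3b26 libraries of the first pair left out (-1.47, adjusted p = 0.0446 in edgeR). The tested gene next to it at lower coordinates, *Spf45*, a splicing factor gene 619 bases away, had a log2FC of 0.03, and CG12567, 90398 bases away on the other side, had -0.03.

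CR43650 (2R, 16829095 to 16839494, plus strand, 10400 bases in 1 exon) contains the gene of mir-8, a conserved microRNA known for roles in growth and insulin signalling. Its CPM was 50.6, 59.4, 34.4 and 45.5 in the libraries labelled w1118 and 29.6, 25.6, 13.5 and 17.0 in those labelled Top3b26. The groups did not overlap, and this held within each replicate pair. The log2FC was -1.14 (SE 0.26, adjusted p = 0.116), which was not called with all libraries, while the block gave -1.18 (adjusted p = 0.00315 in edgeR). It was -1.0 in the first pair and -1.36 in the second, called in both. The mature microRNA was not measured, and the mir-8 gene, whose bases lie in the exon of CR43650, had a count of 0 in all 8 libraries.

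CR34335 (X, 3545750 to 3546110, minus strand, 1 exon) lies inside CG32791, the gene now named *DIP-alpha*, a cell surface protein of synaptic partner recognition. Its CPM was 1059, 1211, 1658 and 1126 in the libraries labelled w1118 and 531, 918, 551 and 588 in those labelled Top3b26. The mutant libraries were again all below the controls, with Top3b26 replicate 2 closest to them. The log2FC was -0.97 (SE 0.22, adjusted p = 0.116), which was not called with all libraries in edgeR. It was called with the block (-0.98, adjusted p = 0.0246 in edgeR), with the term for replicate pair (-0.97, adjusted p = 0.0130 in edgeR), in DESeq2 (-0.95, adjusted p = 0.00321) and in each pair (-0.66 and -1.27). CG32791, on the same strand, had a log2FC of -0.29 (SE 0.28, adjusted p = 0.713 in edgeR).

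CR43051 (2L, 12507939 to 12508504, plus strand), the member now listed as protein coding, holds a snoRNA gene and lies within *bun*, on the other strand. Its CPM was 7.67, 10.5, 13.8 and 17.3 in the libraries labelled w1118 and 3.53, 6.42, 5.91 and 6.55 in those labelled Top3b26. The groups did not overlap, although the lowest control and the highest mutant library were close. The log2FC was -1.14 (adjusted p = 0.148), and -1.13 with the block (adjusted p = 0.0149 in edgeR). It was called in replicates 3 and 4 (-1.30) and not in 1 and 2 (-0.83, adjusted p = 0.131 in edgeR).

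Both members that were called higher with the block run antisense to a protein coding gene. CR45161 (3L, 19989706 to 19990739, plus strand) shares 77.5% of its exon bases with *fln*, which encodes flightin, a protein of flight muscle thick filaments. Its CPM was 7.36, 8.70, 7.44 and 6.97 in the libraries labelled w1118 and 12.8, 16.7, 10.3 and 14.2 in those labelled Top3b26. All mutant libraries were above all controls. The log2FC was 0.84 (SE 0.18, adjusted p = 0.0844), and 0.82 with the block (adjusted p = 0.0328 in edgeR), with 0.89 and 0.81 in the pairs. *fln* itself had 0.95 (adjusted p = 0.0719), and 0.94 with the block (adjusted p = 0.0266 in edgeR). The summed CPM of 3 muscle markers was 1472 to 4738 in the libraries labelled w1118 and 2078 to 6046 in those labelled Top3b26, with 0 of 3 called, and their part in this result was not tested.

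CR45024 (3R, 20677080 to 20677858, plus strand, 2 exons) shares 29.3% of its exon bases with CG4000. Its CPM was 13.8, 13.2, 45.0 and 39.9 in the libraries labelled w1118 and 49.0, 51.2, 61.0 and 89.6 in those labelled Top3b26. The groups did not overlap, but the control libraries of replicates 3 and 4 lay close to the mutant ones. The log2FC was 1.15 (SE 0.42, adjusted p = 0.307), and 1.30 with the block (adjusted p = 0.0196 in edgeR). It was larger in replicates 1 and 2 (1.87) than in 3 and 4 (0.86), a difference of -1.05 (adjusted p = 0.0147 in edgeR's interaction test). CG4000 had 1.72 and 0.71 in the pairs, and over all libraries 1.05 (adjusted p = 0.298), and 1.21 with the block (adjusted p = 0.0182 in edgeR), which was called.

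**Figure D1:**
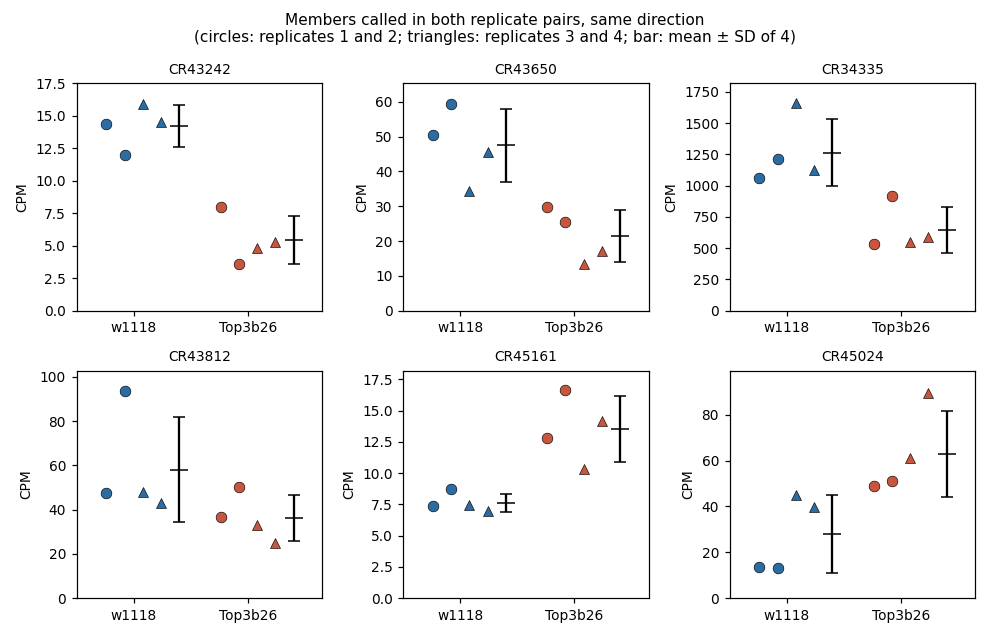
CPM in each library (vertical axis) for the 6 members called in the same direction in both replicate pairs, by genotype. Points are libraries, and bars give the mean ± SD of 4. Except for CR43812, where the groups overlap, all libraries of one genotype lie on one side of the other.

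The other members called lower with the block were CR43480, CR40962, CR43314, CR43812 and CR45566, of which only CR45566 did not overlap between the groups. CR43812 (2R, 20264855 to 20265145, minus strand) lies 7 bases past the end of *RpS18*, a ribosomal protein gene, and across the start of CG8908. Its CPM was 47.7, 93.6, 47.9 and 43.1 in the libraries labelled w1118 and 36.9, 50.02, 33.2 and 25.1 in those labelled Top3b26. One control library, replicate 2, stood well above the rest, and the highest mutant library lay within the control range. The log2FC was -0.67 (adjusted p = 0.390), -0.65 with the block (adjusted p = 0.0253), and -0.67 and -0.64 in the pairs, both called in edgeR. CG8908, on the opposite strand, had -0.90 with the block (adjusted p = 0.140 in edgeR), and -0.84 and -0.91 in the pairs, none of them called. CR45566, which shares 29.8% of its exon bases with *mino*, a gene of glycerolipid synthesis, had -0.58 (adjusted p = 0.181), and -0.59 with the block (adjusted p = 0.0329 in edgeR). *mino* itself had -0.59 with the block (adjusted p = 0.0551 in edgeR, not called). With the term for replicate pair *mino* had -0.59 (adjusted p = 0.0205 in edgeR, called). CR40962, a gene with no position here, had 63.6 ± 15.1 and 35.1 ± 8.09 CPM (SD, n = 4), and -0.86 in both fits (adjusted p = 0.145, and 0.00486 with the block, in edgeR). CR40962, CR43314, CR43480 and CR45566 are named for their call with the block, after their values were seen.

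Of all members, 12 were higher and 10 lower in every library labelled Top3b26 than in any labelled w1118, which is 6.19% and 5.15% of them beside 3.66% and 4.65% of all genes tested. For a single gene such a separation of 4 against 4 has an exact two-sided permutation p of 0.0286. The 12 higher ones included CR17025, CR44981, CR45028 and CR44704, with log2FCs of 0.44 to 0.55, and the largest were those of CR45161 and CR45024.

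The members were also grouped by position. The 159 members that overlap an opposite-strand exon had a median log2FC of 0.05, with 90 above 0 and 69 below, and the block called 2 higher and 3 lower (1.26% and 1.89%, beside 0.914% and 2.91% of all genes). Among the 35 others, CR40962 included, the median was -0.12, with 11 above 0 and 24 below. The block called 0 of the 35 higher and 6 lower (17.1%, beside the same 2.91%). Without the block 0 of the 35 were called higher and 1 lower, and 0 of the 159 in either direction. Beside these stand 0.249% and 0.664% of all genes tested. The 35 are of mixed types, and the counts called among them are small. The 21 members whose exons overlap no exon of another gene had a median of -0.11. The block called 0 of these 21 higher and 2 lower, beside the same 0.914% and 2.91% of all genes. On chromosome 4, a small chromosome rich in heterochromatin, the 8 members had a median of 0.01 and none was called, at log2FCs of -0.20 to 0.41.

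In all, 8 members overlap a microRNA gene on their own strand, the position of a primary transcript. Besides CR43650 they are CR31451 (mir-9381), CR44327 (mir-276a), CR43334 (the bantam gene, mir-ban, which promotes growth), CR43314 (mir-bft of the *bereft* locus, known for its part in sense organs), CR17025 (mir-252), CR43459 (mir-277 and mir-34, the latter known in brain ageing) and CR31044 (mir-279 and mir-996, known in sensory neuron identity). With all libraries 0 were called. The block called 0 of the 8 higher and 2 lower, CR43650 and CR43314, beside 0.914% and 2.91% of all genes tested. With 8 members these counts are too small to describe microRNA loci as a group. The median log2FC of the 8 was -0.28, with 2 above 0 and 6 below.

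CR31451 (3R, 23983503 to 23985065, plus strand) had 2922, 3764, 1487 and 1333 CPM in the libraries labelled w1118 and 2468, 2302, 935 and 815 in those labelled Top3b26. Each mutant library was below the control of the same number, but replicates 1 and 2 of both genotypes were far above replicates 3 and 4. The log2FC was -0.54 (adjusted p = 0.676), -0.58 with the block (adjusted p = 0.0670), -0.59 and called with the term for replicate pair (adjusted p = 0.0130), -0.50 in the first pair and -0.68 in the second, of which the second was called, all in edgeR. CR43314 (2L, 11952200 to 11971094, minus strand, 2 exons) had 20.2, 24.9, 7.27 and 7.56 CPM in the libraries labelled w1118 and 12.8, 11.6, 5.07 and 4.68 in those labelled Top3b26. It too was lower in the mutant at each replicate number, with a log2FC of -0.77 (adjusted p = 0.570), and -0.77 with the block (adjusted p = 0.0399 in edgeR).

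CR44327 (3L, 10323501 to 10367450, plus strand, 5 exons), from the mir-276a locus, had 65.0, 72.9, 56.9 and 61.8 CPM in the libraries labelled w1118 and 43.0, 38.7, 58.5 and 69.7 in those labelled Top3b26. Only Top3b26 replicates 1 and 2, the libraries low in photoreceptor markers, were below the controls. The log2FC was -0.77 in the first pair and 0.13 in the second, a difference of 0.86 (adjusted p = 0.00795 in edgeR's interaction test). CR17025 (3R, 13455511 to 13466106) was the one of the 8 with all mutant libraries above the controls, at 18.3 ± 3.11 and 25.0 ± 2.40 CPM (SD, n = 4) and a log2FC of 0.44 (SE 0.15, adjusted p = 0.289 in edgeR). It shares 46.1% of its exon bases with CG14372 on the opposite strand. CG14372 had 0.35 (adjusted p = 0.324 in edgeR), with 0.44 and 0.23 in the pairs. Over all libraries CR43334, CR43459 and CR31044 had -0.27, 0.02 and -0.05.

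**Figure D2:**
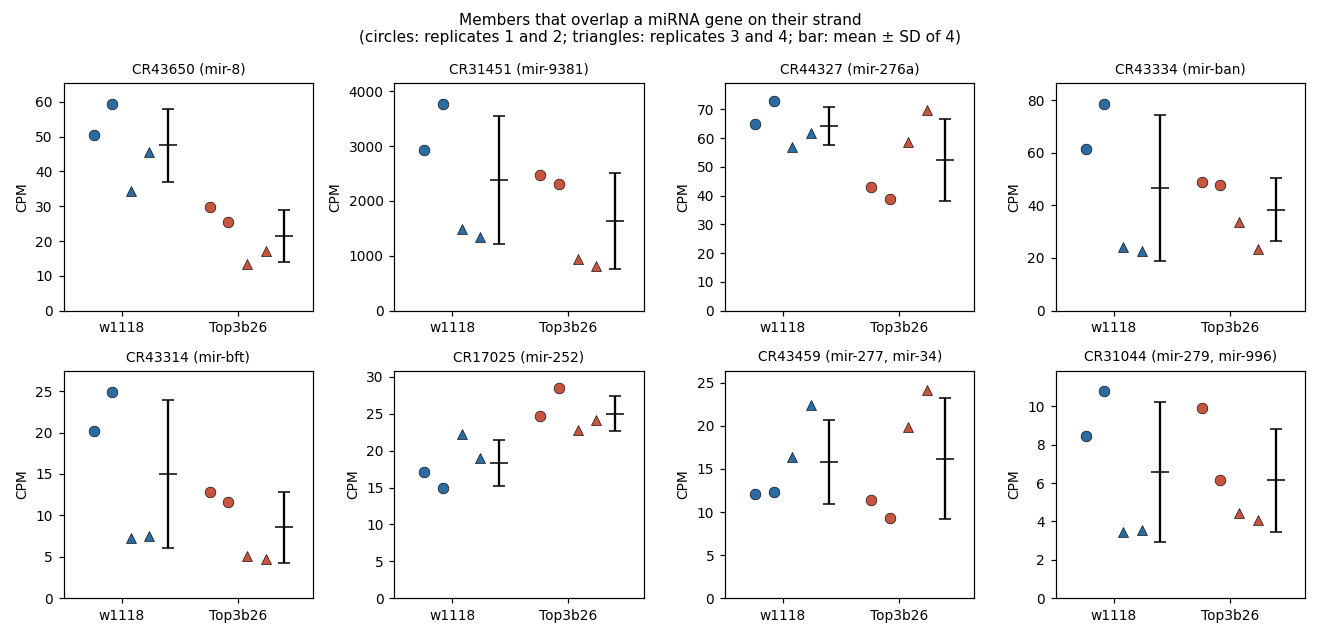
CPM in each library (vertical axis) for the 8 members that overlap a microRNA gene on their strand, by genotype, with the microRNA gene in brackets and bars for the mean ± SD of 4. CR43650 is below the controls in all 4 libraries labelled Top3b26, CR17025 is above them, and several others differ more between replicate pairs than between genotypes.

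Within replicates 1 and 2, 16 members were called higher and 19 lower (8.25% and 9.79% of the members), beside 3.50% and 7.03% of the 9686 genes tested there. Within the second pair, 3 were called higher and 18 lower (1.55% and 9.28%), beside 1.52% and 5.95% of 9656 genes. With 2 libraries a side these tests have few degrees of freedom, and leaving out 1 library gave 9 to 32 higher and 13 to 29 lower in the first pair and 4 to 6 and 15 to 20 in the second. The higher count in replicates 1 and 2 was 32 without w1118 replicate 1 and 9 without Top3b26 replicate 2, and the lower count was 29 without w1118 replicate 1. In replicates 3 and 4 the higher count was 6 without w1118 replicate 3. The genotypes in replicates 1 and 2 also differed in photoreceptor markers (33089 and 36251 CPM against 1266 and 1232), whose part in these calls was not tested.

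In total 6 members (3.09%) were called in the same direction in both pairs, beside 2.49% of the 9400 genes tested in both. They were CR43242, CR43650, CR34335 and CR43812, all lower, and CR45161 and CR45024, both higher. A further 2 members (1.03%, beside 0.351% of genes) were called in opposite directions, CR43468 and CR40677. The interaction test found a different genotype effect in the pairs for 20 members (10.3%), at an adjusted p of at most 0.05, beside 7.31% of genes.

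**Figure D3:**
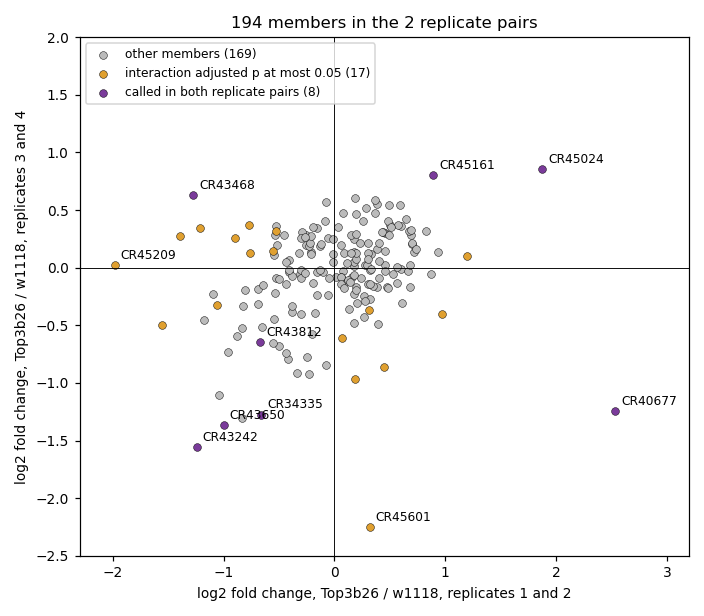
Log2FC (Top3b26 over w1118) of the 194 members in replicates 1 and 2 (horizontal axis) and in replicates 3 and 4 (vertical axis). Purple points are the 8 called in both pairs and orange points the other 17 with an interaction at an adjusted p of at most 0.05, with CR45601 and CR40677 the farthest from the diagonal.

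CR40677, a 30-base pseudogene of 2S rRNA (X, 23205409 to 23205438, plus strand), showed the smallest interaction p. Its CPM was 513, 394, 341 and 291 in the libraries labelled w1118 and 2856, 2447, 99.5 and 163 in those labelled Top3b26. Top3b26 replicates 1 and 2 were above every other library and Top3b26 replicates 3 and 4 below. The log2FC was 2.53 in the first pair and -1.24 in the second pair, a difference of -3.80 (adjusted p = 1.95e-08 in edgeR's interaction test). Over all libraries it was 1.85 (adjusted p = 0.470 in edgeR), while the block gave 0.66 and limma voom 0.59, none of them called. The other rRNA pseudogenes had -0.42 and -0.80 (CR41602) and -0.23 and -0.92 (CR41609) in the pairs, with no interaction called (adjusted p = 0.386 and 0.139 in edgeR).

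CR45601 (X, 10054235 to 10055109, minus strand, 1 exon) lies wholly under the exons of *Yp1*, a yolk protein gene of the female fat body. Its CPM was 2416, 1538, 8481 and 12870 in the libraries labelled w1118 and 1794, 3197, 1964 and 2464 in those labelled Top3b26. Only w1118 replicates 3 and 4 were high, the same libraries in which the 3 yolk protein genes were high. The log2FC was 0.32 in replicates 1 and 2 (adjusted p = 0.335) and -2.25 in replicates 3 and 4 (adjusted p = 1.83e-05), a difference of -2.60 (adjusted p = 7.52e-05, all in edgeR). *Yp1* had 4630, 3544, 15861 and 22384 CPM in the libraries labelled w1118 and 3033, 5504, 3370 and 4222 in those labelled Top3b26, with a difference of -2.40 between the pairs. The share of females in each sample is not given in the sources used here, and its part in this result was not tested.

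CR43468 (2R, 12875164 to 12877280, plus strand, 2 exons) shares 71.5% of its exon bases with CG3814, now named *Lfg*. Its CPM was 36.0, 45.3, 20.4 and 21.9 in the libraries labelled w1118 and 18.1, 15.4, 32.3 and 32.7 in those labelled Top3b26. The mutant was lower in the first pair and higher in the second, with log2FCs of -1.28 and 0.63 and a difference of 1.88 (adjusted p = 3.67e-05 in edgeR's interaction test). CG3814, at 7.08 ± 1.90 and 8.29 ± 2.97 CPM (SD, n = 4), had 0.28 and 0.11 (interaction adjusted p = 0.846 in edgeR).

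CR45209 (3R, 27109329 to 27111033, plus strand, 1 exon) shares 50.7% of its exon bases with *gb*, genderblind, a glial amino acid transporter. Its CPM was 23.8, 23.7, 21.5 and 19.9 in the libraries labelled w1118 and 6.25, 5.88, 20.7 and 20.7 in those labelled Top3b26. The 2 low libraries were again those low in photoreceptor markers, and the other 6 were alike. The log2FC was -1.98 in the first pair and 0.02 in replicates 3 and 4 (interaction adjusted p = 5.58e-05 in edgeR). *gb* moved likewise, with -1.15 and 0.19. CR43480 (X, 23090324 to 23093609, plus strand, 5 exons) had 21.6, 25.5, 29.6 and 26.7 CPM in the libraries labelled w1118 and 8.65, 7.38, 22.0 and 17.8 in those labelled Top3b26. It had a log2FC of -0.90 over all libraries (adjusted p = 0.314), -0.98 with the block (adjusted p = 0.0471, called), -1.56 in the first pair and -0.50 in the second (interaction adjusted p = 0.0229 in edgeR).

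Among the abundant members, CR42862 and CR44509 also had an interaction. CR42862 had log2FCs of -0.52 and 0.32 in the pairs and CR44509 of -1.06 and -0.32. *Obp56e*, opposite CR44509, had -1.27 and -0.30. CR30267, antisense to CG42260 and among the 4 largest rises over all libraries (0.68, adjusted p = 0.511), had 0.82 and 0.32 in the pairs with no interaction called (adjusted p = 0.42 in edgeR), and its highest value, 33.3 CPM, was in Top3b26 replicate 2.

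**Figure D4:**
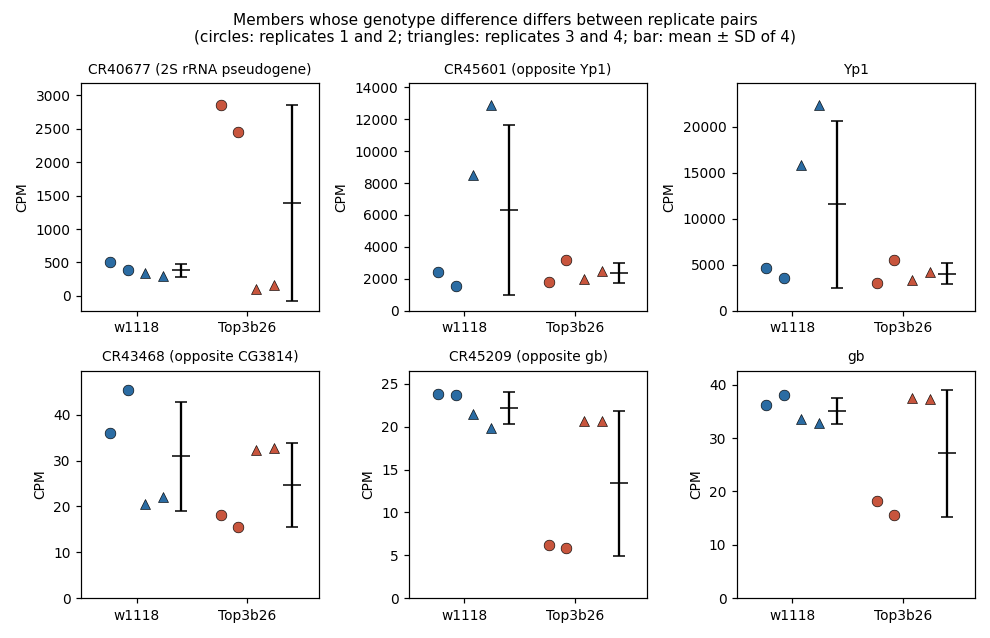
CPM in each library (vertical axis) for 4 members with a genotype effect that differs between replicate pairs, and for *Yp1* and *gb* on the strand opposite CR45601 and CR45209, with bars for the mean ± SD of 4. CR45601 and *Yp1* are both high only in w1118 replicates 3 and 4, and CR45209 and *gb* are both low only in Top3b26 replicates 1 and 2.

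The replicate pairs themselves also differed. In a fit with both terms, 21 members were called higher and 19 lower in replicates 3 and 4 than in 1 and 2 (10.8% and 9.79%), beside 12.3% and 6.32% of genes. The largest rises were those of CR45600 (log2 2.27), CR45176 (1.76) and CR43964 (1.75). The largest falls were those of CR40677 (-2.42), CR43477 (-1.88) and CR43314 (-1.47). CR45600, antisense to CG3984, had 4.70, 6.0, 22.3 and 27.9 CPM in the libraries labelled w1118 and 4.17, 3.96, 17.3 and 21.8 in those labelled Top3b26, so that its level followed the replicate pair and the genotypes overlapped. Among the microRNA loci, CR31451 (-1.35), CR31044 (-1.16), CR43334 (-1.16), CR43314 and CR43650 (-0.63) were lower in replicates 3 and 4 and CR43459 (0.90) was higher.

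The genes across from the antisense members bear on how these counts are read. Of the 159 members with an opposite-strand overlap, the median shared 74.0% of exon bases, and in 9 all exon bases were shared. These 9 still had at least 22 counts in every library, although a read on them lies on an annotated exon of both strands. Their counts per kilobase, summed over the 8 libraries, were 0.188 to 1.96 times those of the opposite gene with a median of 0.990, and 7 of 9 were within 2-fold. CR45601 had 246971 counts per kb and *Yp1* 239806, a ratio of 1.03 that ran from 0.799 to 1.09 over the libraries. CR43425, antisense to the synaptic vesicle priming gene *unc-13*, had a ratio of 0.971, CR44986, antisense to *Gpdh*, a glycerol phosphate dehydrogenase gene, 0.399, and CR43430, antisense to *hts*, the adducin gene, 0.188. The strand setting of the counting is not given in the sources used here. Reads set aside as ambiguous were 0.559 to 0.956% per library. Reads of such a member and of the gene on the other strand cannot be told apart in these files. Values given for the 159 are counts under the member's symbol and may hold reads of the opposite gene, whose part was not tested.

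Over the 151 members whose opposite gene was tested, the log2FCs of member and gene had the same sign in 114 and differed by at most 0.5 in 144. Across these genes Pearson's r was 0.80 and Spearman's rho 0.73 over all libraries, 0.70 and 0.65 in the first pair and 0.80 and 0.71 in the second pair. These are a description only, since member and gene come from the same libraries and may hold reads of the same transcripts. Where at least 90% of exon bases were shared (29 members) r was 0.92, where 50% to under 90% were shared (91 members) 0.75, and where under 50% were shared (31 members) 0.77. The median absolute difference between member and gene was 0.13, 0.15 and 0.13 in the 3 classes. The members' own median absolute log2FC was 0.18, 0.23 and 0.37 there. In the second pair the signs were the same in 16 of the 29 and 27 of the 31, with rho of 0.52 and 0.63. For levels, r of the log2 counts per kb was 0.93, 0.69 and 0.37 in the 3 classes. The pairs that parted most over all libraries were CR44054 (-0.62) with CG15199 (0.14) and CR44981 (0.50) with *sky* (-0.24), a gene of synaptic vesicle traffic. The member had more counts per kb than the gene in 40 of 151 cases (26.5%), most of all CR43812, with 7213 counts per kb against 26.9 for CG8908.

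**Figure D5:**
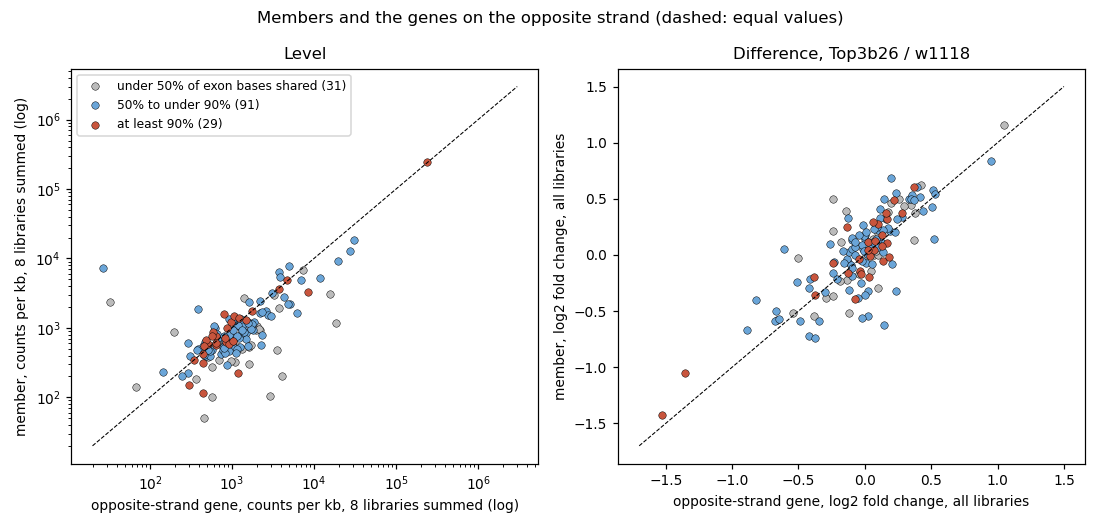
Left, counts per kilobase of exon summed over 8 libraries (log axes) for 151 members and the genes on the opposite strand; right, log2FC (Top3b26 over w1118, all libraries) of the same pairs, coloured by the share of the member's exon bases that overlap. In the left panel 40 of the 151 members lie above the line of equal values and most lie below it, closer to it where at least 90% is shared. In the right panel 144 of the 151 lie within 0.5 of the line.

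Among the called members the opposite gene often moved too. Of the 16 called higher in replicates 1 and 2, 15 had a tested opposite gene, which had the same sign in 14 and was itself called in 7, and 1 was called the other way (*sky*, opposite CR44981). Of the 19 called lower there, 8 had one, with the same sign in 6 and a call in 2. Of the 18 called lower in the second pair, 10 had one, with the same sign in 10 and a call in 4, and the 3 called higher had 3, with 2 called. Over all 151 members with a tested opposite gene, the sign was the same in 113 in the first pair and 116 in the second. Among all genes tested, 3.50% were called higher and 7.03% lower in the first pair, and 1.52% and 5.95% in the second.

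Other noncoding RNAs, from a list of 31 named genes, were measured in the same libraries. Of these 27 were listed in the files and 16 tested, and 0 were called in either direction with or without the block, with 5 above 0, 11 below and a median log2FC of -0.10. *roX1* had 2204 ± 1048 and 2724 ± 1268 CPM (SD, n = 4) and a log2FC of 0.31 (SE 0.42, adjusted p = 0.820 in edgeR). *noe*, an abundant nervous system RNA, had 5248 ± 476 and 5230 ± 955 CPM, and *Hsromega*, the heat shock RNA omega, 562 ± 314 and 456 ± 157. *pncr009:3L* had the largest log2FC of the 16, 0.71 (SE 0.19, adjusted p = 0.169, and 0.0925 with the block, in edgeR), with 0.79 and 0.65 in the pairs.

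Near the floor of 20 counts, the members just inside were CR44023, CR31044 and CR45600, each with a lowest count of 20. Those just outside were CR45163, CR42547 and CR43259, each with a lowest count of 19, in w1118 replicate 2, the library with the fewest counts on genes. CR44023 had 20 to 49 counts over the 8 libraries and CR42547 had 19 to 63.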

How the data were processed

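Poly- or ribo-selection is not given in the sources used here. Per the labels, total RNA was extracted with TRIzol from frozen, sieved heads, and the submitters' processing notes name FastQC, TopHat2 2.1.1, SAMtools 1.8 and the dm6 genome. The paper's methods name another TopHat version. The deposited files hold raw counts per gene symbol, made by the authors. The counter and its strand setting are not given in the sources used here. Rows for reads on no feature (43.1 to 48.9%), ambiguous (0.559 to 0.956%) and not unique (16.6 to 30.4%) were kept out of totals and tests. Totals per library limit precision, and p-values do not cover batch.

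Positions and overlaps came from the Ensembl BDGP6 annotation (dm6 coordinates) and types from RefSeq. Of 194 members 193 were matched. Counts were filtered with filterByExpr (9633 genes), scaled with TMM and tested with edgeR 4.0.16 (quasi-likelihood, genotype alone), with Benjamini-Hochberg adjustment over all genes. Genes at an adjusted p up to 0.05 that differed 1.5-fold or more were called. The standard error is the log2 fold change over the root of F. Alternatives used DESeq2 1.42.0, limma voom 3.58.1, other size factors, no filter, a replicate block, a term for replicate pair, other floors, each library left out and each pair alone. Samples of one number deviated together (r of 0.439 to 0.647 in 4 pairs), but so did other numbers of the same replicate pair (0.526 to 0.621), so the pairing is not told apart from that of the replicate pairs, and blocked values are given beside the named members whose call they change.

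Members, lists and named genes were chosen with earlier results of these data known. Named are the 8 highest by mean CPM, every member called with all libraries, the 4 largest rises and falls, members called in both replicate pairs, those with opposite calls or the 4 smallest interaction p-values, and 3 on each side of the floor, with the genes they overlap. Members outside this rule were named after their values were seen. Sequences were not used here. Microarray and ChIP-seq data were not analysed here.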

Additional observations from a re-analysis of the deposited data

Results flagged for a closer look

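Of 40 groups of 4 libraries checked over 20 members, 3 had a library far from the rest, where chance gives about 1 in 20. The gap between that library and the nearest other, as a share of the group's range, was 0.852 for CR34335, whose Top3b26 replicate 2 was high, 0.876 for CR41602, whose Top3b26 replicate 3 was low, and 0.905 for CR43812, whose w1118 replicate 2 was high.

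The genotype effect differed between the replicate pairs, by edgeR's interaction test, in 11 of the members named here, 4 of which (CR43480, CR43964, CR44054 and CR44327) lie outside the rule for named genes. As the log2FC of replicates 3 and 4 minus that of replicates 1 and 2, the difference was -3.80 for CR40677, -2.60 for CR45601, -1.05 for CR45024, 0.71 for CR44509, 0.81 for CR42862, 0.86 for CR44327, 1.03 for CR43480, -1.34 for CR43964, -1.19 for CR44054, 1.88 for CR43468 and 1.97 for CR45209. In replicates 1 and 2 the libraries labelled Top3b26 had 1266 and 1232 CPM of summed photoreceptor markers against 33089 and 36251 in those labelled w1118, and the part of this in the differences was not tested.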

How the results depend on the processing

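With all libraries, 0 members were called higher and 1 lower. DESeq2 gave 1 and 5, the replicate block 2 and 9, the term for replicate pair 2 and 11, replicates 1 and 2 alone 16 and 19, and replicates 3 and 4 alone 3 and 18. A floor of 50 counts gave 0 lower, which leaves out CR43242, and the block over members with no exon overlap gave 2 lower. Other size factors, limma voom, no filter, no fold threshold, a floor of 10 and leaving out both Top3b26 libraries of replicates 1 and 2 (added after the data were seen) stayed at 0 and 1. Leaving out 1 library gave 0 to 1 lower over all libraries, and in replicates 1 and 2 it gave 9 to 32 members higher beside 13 to 29 lower, with 4 to 6 higher in replicates 3 and 4. There a lone library was assumed to vary like the other group. The counts called between pairs and in the interaction stayed within 1.5 times under limma voom and median-of-ratios factors.

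Of 414 values of log2FC for 23 members under alternatives, 334 kept direction and side of the threshold, 47 became calls (with a replicate pair alone, the block, the pair term or DESeq2), 7 lost the call of CR43242 and 26 changed sign, in 9 members that were not called with all libraries. With replicates 3 and 4 alone these were CR31044 (0.28), CR40677 (-1.24), CR42862 (0.32), CR43468 (0.63), CR44023 (-0.078) and CR45209 (0.022), and with replicates 1 and 2 alone CR45601 (0.32). Without both Top3b26 libraries of replicates 1 and 2 they were CR30267 (-0.071), CR40677 (-1.54), CR42862 (0.024), CR43468 (0.092), CR44023 (-0.32) and CR45600 (0.36). The block gave -0.016 and the pair term -0.0036 for CR44023, and limma voom 0.11 for CR31044. Leaving out 1 library gave -0.38 to 0.27 for CR31044, -0.21 to 0.069 for CR42862, -0.13 to 0.15 for CR44023 and -0.90 to 0.071 for CR45600. The cause was not tested. For the members, *Top3beta*, *fln* and CG4000, blocked values that change a call stand beside the results.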
